A study of Homo sapiens with 6 samples.

Results

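The ATF4 and CHOP regulators described here are 10 genes of the integrated stress response, namely ATF4, DDIT3 (which encodes CHOP), ATF3, ATF5, CEBPB, TRIB3, CHAC1, PPP1R15A, DDIT4 and STC2. They are 10 of 20044 genes with an annotated probe on the arrays. The members were chosen on values of the comparison of circANRIL with vector control arrays, in which several of them were already known to be higher. The levels below are therefore a description, with no test of a member. All probes annotated to these symbols were taken, 14 in number, of which 12 were detected on at least 3 of the 6 arrays and all 10 genes kept at least 1 probe.

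The arrays (Illumina HumanHT-12 v4) measured RNA of HEK-293, a line derived from human embryonic kidney. In 3 samples the cells stably overexpressed circular ANRIL (circANRIL-pBI-CMV2), a circular RNA spliced from exons of the long non-coding RNA ANRIL. The 3 control samples carried the pBI-CMV2 vector. Cells of either group had, per the study's methods, been co-transfected with a neomycin resistance vector and selected with G418, and the pBI-CMV2 vector also expresses a green fluorescent protein. At least 3 lines were made per construct, but the labels do not say whether the 3 arrays of a group come from separate lines, so the p-values reflect only how these arrays spread, which may be technical, and a difference between groups and one between lines cannot be told apart. Each array detected 43.4% to 46.8% of the probes. Pearson's r across probes was 0.980 to 0.990 for arrays of the same group and 0.946 to 0.968 for arrays of different groups. Of 7 markers set for HEK-293, 4 were detected on all 6 arrays (SALL1, NEFL, NEFM and VIM) and PAX2 on none. The neurofilament genes among them differed widely between the groups, with mean log2 levels in vector control and circANRIL of 12.5 and 7.11 for NEFM, 5.04 and 8.79 for INA (detected on 1 vector control array) and 9.99 and 11.1 for NEFL, and their part in the results was not tested. Of 5 blood markers CD14 and CD68 were detected on all 6 arrays and PTPRC, CD3E and LYZ on none, of 4 fibroblast markers COL1A1 was detected on all 6, and of 3 endothelial markers none was detected on any array.

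In the integrated stress response, kinases that sense stress phosphorylate the initiation factor eIF2, which lowers translation in general but favours the translation of the ATF4 mRNA. ATF4 then turns on genes of amino acid supply together with further regulators, among them CHOP and ATF3, and some of these genes in turn restrain the response. Because ATF4 is controlled mainly at translation, its mRNA level is only part of its regulation. ATF4 and its relatives bind DNA as basic leucine zipper (bZIP) dimers, often at a composite C/EBP-ATF element known as CARE.

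The RefSeq promoter windows of the members (GRCh38.p14, from 250 bases before to 50 after each annotated start) were searched on both strands for TGATGNAA, the core of CARE, and for TGACGTCA, the cyclic AMP response element that ATF and CREB proteins bind. The 10 members had 18 windows. CARE letters were found in windows of 2 of them, CHAC1 and ATF3, and TGACGTCA in 1, PPP1R15A. They are shown because these elements are the DNA sites that the encoded bZIP factors are known for, with the matched letters in capitals and 16 bases on each side.
CHAC1, chr15:40953246-40953285, plus strand: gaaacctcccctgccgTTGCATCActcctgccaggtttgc
ATF3, chr1:212565200-212565239, plus strand: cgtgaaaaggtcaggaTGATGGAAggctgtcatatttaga
PPP1R15A, chr19:48872347-48872386, plus strand: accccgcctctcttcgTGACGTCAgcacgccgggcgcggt
Relative to the annotated start the match spans positions −209 to −202 in CHAC1, on the minus strand, −191 to −184 from the more upstream start of ATF3 and −58 to −51 in PPP1R15A. Over all 27305 genes with a window, 4.46% hold TGATGNAA on either strand and 2.25% hold TGACGTCA. By window, the shares are 3.62% and 1.85% of 35116. The other 7 members had no match to either motif in these windows. A match of letters is a description of the sequence and was not tied to any binding measurement.

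Across the 10 genes the circANRIL arrays were the higher ones for most regulators downstream of ATF4, while the ATF4 mRNA itself hardly differed. By the brightest detected probe, the log2 fold changes of circANRIL over vector control ran from 0.13 for ATF4 to 2.06 for TRIB3, with a median of 0.90, beside −0.02 over all 12134 genes measured. In 7 of the 12 detected probes, all of different genes, every circANRIL array lay above every vector control array. Over all 21191 detected probes that holds for 16.5%. The same 7 probes were past the threshold of limma's fit (adjusted p under 0.05 over all detected probes), beside 9.27% of all probes that were higher past it and 17.7% called in either direction. None of the 12 was lower past it. Since this contrast chose the genes, nothing is read from these counts. Gene positions below are those of RefSeq on GRCh38.p14, and where the probes lie in each transcript was not used. Higher levels in a culture can come from more RNA per cell or from more cells with that RNA, which cannot be told apart here.

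**Figure D1:**
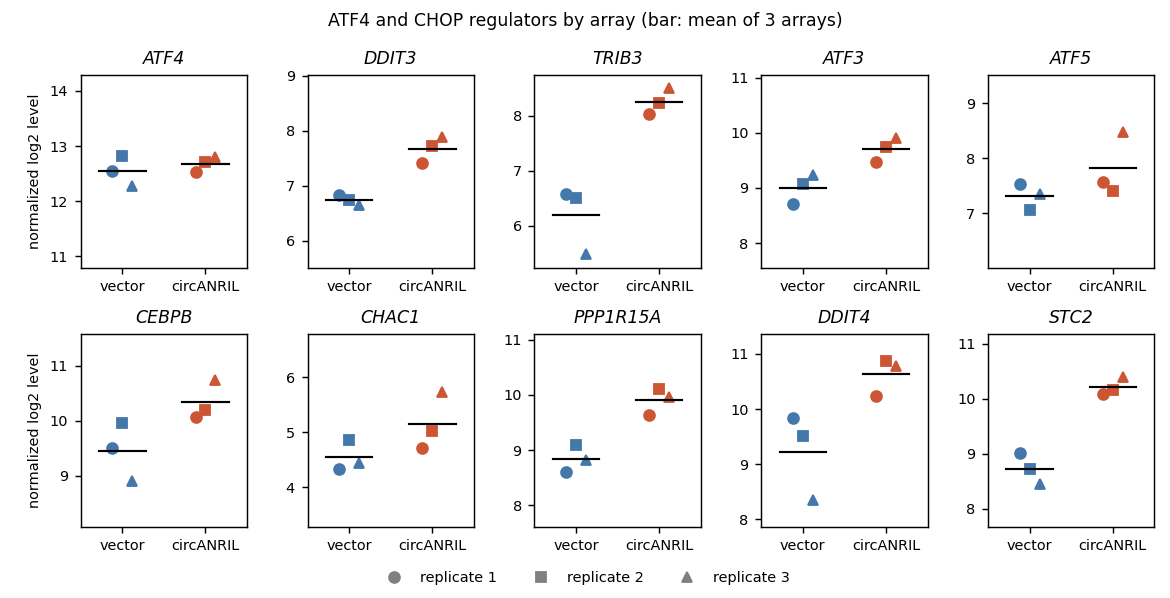
Normalized log2 level (vertical axis, the same span of log2 units in every panel) of each of the 10 regulators by its brightest detected probe on the 3 vector control and 3 circANRIL arrays, with the mean of each group as a bar. The groups are apart in 7 panels and overlap for ATF4, ATF5 and CHAC1.

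ATF4 (chr22:39520559-39522686), the transcription factor at the centre of the response, was detected on all arrays by 3 probes. By the brightest, its normalized log2 level was 12.54, 12.81 and 12.29 on vector control arrays 1, 2 and 3 and 12.53, 12.71 and 12.80 on the circANRIL arrays. The groups overlapped, with the highest value on vector control array 2 and the lowest on vector control array 3. The log2 fold change was 0.13 (standard error 0.13, n = 3 arrays per group), and the other 2 probes had 0.15 and 0.01 (standard errors 0.17 and 0.18). In the deposited signals, before normalization between arrays, the ratio of group means for the 3 probes was 1.00, 0.945 and 0.975. Without vector control array 3 the value by the brightest probe was −0.003.

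DDIT3 (chr12:57516588-57520517) encodes CHOP, the bZIP factor linked to cell death under lasting stress. Its deposited signal was 95.2, 96.0 and 97.2 on the vector control arrays and 156, 170 and 205 on the circANRIL arrays, and its normalized log2 level 6.84, 6.74 and 6.66 against 7.41, 7.72 and 7.88. The vector control arrays lay close together, and the gap between the groups was 0.57. CircANRIL over vector control came to 0.92 on the log2 scale (standard error 0.19), a 1.90-fold higher level, and without each array in turn it was 0.82 to 1.06.

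ATF3 (chr1:212565407-212620777), a bZIP repressor and early stress gene, was detected by 1 of its 3 probes, and the other 2 were detected on no array. The detected probe had log2 levels of 8.70, 9.06 and 9.23 on the vector control arrays and 9.47, 9.75 and 9.91 on the circANRIL arrays. The groups were apart by 0.23 and the log2 fold change was 0.71 (standard error 0.17). It was not past the threshold without circANRIL array 2 (0.69) or 3 (0.61). Those fits called fewer probes in all, 2138 and 2192 in place of 3753.

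CEBPB (chr20:50190583-50192690), a C/EBP factor that can pair with ATF4, had log2 levels of 9.50, 9.97 and 8.91 on the vector control arrays and 10.07, 10.21 and 10.75 on the circANRIL arrays. The groups were apart by only 0.10, between vector control array 2 and circANRIL array 1. The log2 fold change was 0.88 (standard error 0.23). It was 0.61 without vector control array 3 and 0.68 without circANRIL array 3, and was not past the threshold in those fits. They also called fewer probes in all, 2951 and 2192 in place of 3753.

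ATF5 (chr19:49928906-49933935), a relative of ATF4 that is likewise controlled at translation, had log2 levels of 7.53, 7.05 and 7.36 on the vector control arrays and 7.56, 7.40 and 8.48 on the circANRIL arrays. A single array, circANRIL array 3, carried the difference, and circANRIL array 2 lay below vector control array 1. The log2 fold change was 0.50 (standard error 0.25) and 0.17 without circANRIL array 3. It was not past the threshold in the fit of all arrays or without any 1 array.

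TRIB3 (chr20:380760-397559), a pseudokinase that is induced by ATF4 and CHOP and restrains both, showed the largest difference of the 10. Its deposited signal was 76.4, 79.9 and 31.9 on the vector control arrays and 246, 243 and 328 on the circANRIL arrays. Its log2 levels were 6.58, 6.51 and 5.48 against 8.04, 8.22 and 8.51, with the groups apart by 1.46. The difference was 2.06 on the log2 scale (standard error 0.26), or 4.18-fold. Vector control array 3 lay about 1 log2 unit below the other controls, and the value without it was 1.69.

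PPP1R15A (chr19:48872421-48876058) encodes GADD34, which brings a phosphatase to eIF2 and so ends the response. Its log2 levels were 8.61, 9.09 and 8.82 on the vector control arrays and 9.64, 10.10 and 9.96 on the circANRIL arrays. The gap of 0.55 exceeded the whole range of either group. On the log2 scale the fold change was 1.06 (standard error 0.17), with 0.95 to 1.19 when each array was left out.

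CHAC1 (chr15:40953471-40956512), a glutathione-degrading enzyme known as a target of the ATF4, ATF3 and CHOP cascade, was near the detection limit. It was detected on all 3 circANRIL arrays but, among the controls, on vector control array 2 only. The deposited signals were 0.453, 13.5 and 4.46 on the vector control arrays and 10.8, 15.4 and 35.4 on the circANRIL arrays, so circANRIL array 1 lay below vector control array 2. The log2 fold change was 0.60 (standard error 0.23), which is inexact as 2 controls were not detected. It was not past the threshold in the fit of all arrays. Without the circANRIL arrays it would not have met the detection filter, so its calls in other fits are not read. The value was 0.70 with median scaling, 0.76 without vector control array 2 and 0.82 without circANRIL array 1. Without circANRIL array 3 the value was 0.32, with a larger offset of 50 it was 0.29 and in the authors' normalized values 0.21.

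DDIT4 (chr10:72273924-72276036) encodes REDD1, an inhibitor of the growth kinase complex mTORC1. Its deposited signal was 893, 738 and 365 on the vector control arrays and 1161, 1619 and 1667 on the circANRIL arrays. Its log2 levels were 9.83, 9.51 and 8.35 against 10.23, 10.88 and 10.78, so the groups were apart by 0.40 although the controls spread widely (SD 0.78, n = 3). This gave a log2 fold change of 1.40 (standard error 0.28), and 0.97 without vector control array 3.

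STC2 (chr5:173314723-173328414), a secreted glycoprotein induced through ATF4, had deposited signals of 499, 419 and 395 on the vector control arrays and 1045, 967 and 1260 on the circANRIL arrays. Its log2 levels were 9.02, 8.72 and 8.46 against 10.08, 10.16 and 10.39. The groups were apart by 1.06, the widest gap after TRIB3. The log2 fold change was 1.48 (standard error 0.17), or 2.79-fold, and 1.34 to 1.62 when each array was left out.

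**Figure D2:**
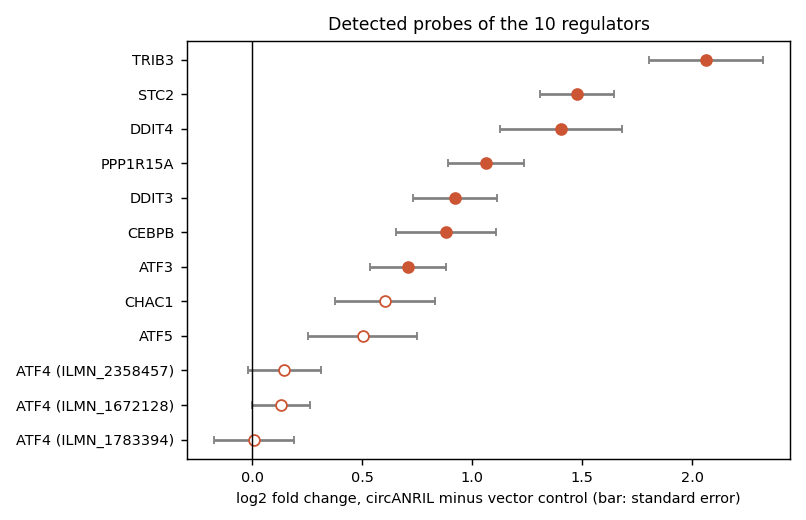
Log2 fold change of circANRIL over vector control (horizontal axis, bars give the standard error of limma's fit with n = 3 arrays per group) for each of the 12 detected probes, with filled points for probes past an adjusted p under 0.05. The 3 ATF4 probes lie between 0.01 and 0.15 and TRIB3 is highest at 2.06. Since this contrast chose the genes, the filled points test no member.

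Leaving out each array in turn, DDIT3, TRIB3, PPP1R15A, DDIT4 and STC2 stayed past the threshold in all 6 fits. As the same contrast chose the members, this describes how far the values lean on 1 array and tests no member. The number of detected member probes past it ran from 5 without circANRIL array 3 to 8 without vector control array 2 or circANRIL array 1. Those 8 include CHAC1, which without the circANRIL arrays would not have met the detection filter. Apart from ATF4, the log2 fold change of each member by its brightest probe stayed above 0 in each of the alternatives run on it.

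The regulators also largely shared an order of the circANRIL arrays, and less so of the vector control arrays. Of the 10 genes by their brightest probe, 9 were lowest of the circANRIL arrays on array 1 and 8 were highest on array 3, the exceptions to the latter being PPP1R15A and DDIT4. Among the controls 6 of the 10 were lowest on vector control array 3, including TRIB3, CEBPB and DDIT4, while ATF3 was highest there. The highest control was array 1 for 5 genes and array 2 for 4. Over all 12134 genes, 32.8% were lowest of the circANRIL arrays on array 1, 36.1% highest on array 3, and 36.0% lowest of the controls on vector control array 3. Relative to each gene's mean over the vector control arrays, the 10 genes averaged 0.71, 0.96 and 1.26 log2 units on circANRIL arrays 1, 2 and 3 and 0.09, 0.17 and −0.26 on vector control arrays 1, 2 and 3. The labels name no batch, slide or date for the arrays, and a part of such factors in this order was not tested.

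**Figure D3:**
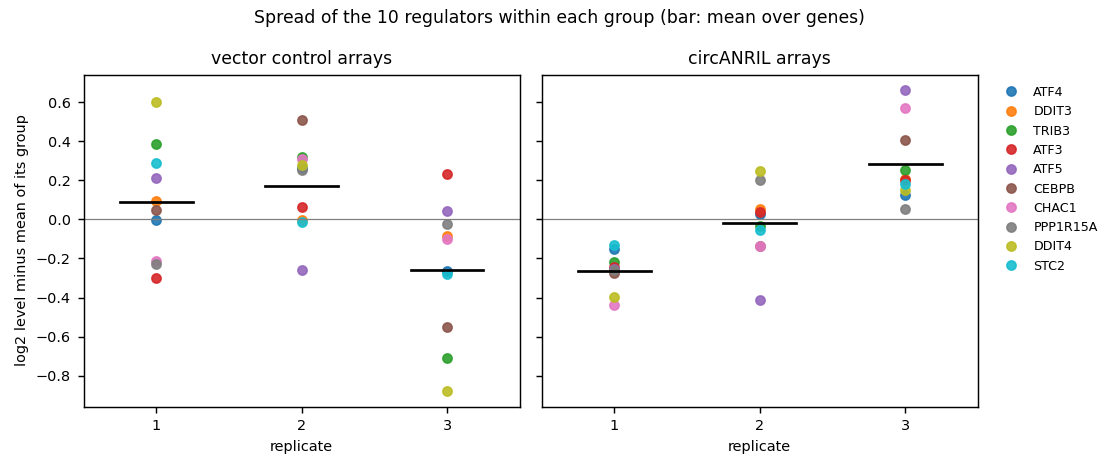
Log2 level of each of the 10 regulators minus the mean of its own group (vertical axis) on the vector control arrays (left) and the circANRIL arrays (right) by replicate, with the mean over the 10 genes as a bar. The mean lies at −0.26 on vector control array 3, at −0.26 on circANRIL array 1 and at 0.28 on circANRIL array 3.

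Paralogs of the members behaved differently from each other. STC1, the paralog of STC2, had log2 levels of 6.49, 6.37 and 4.45 on the vector control arrays (detected on 2 of 3) and 8.80, 9.38 and 9.77 on the circANRIL arrays. The log2 difference of the means was 3.55 (standard error 0.39). TRIB2, a pseudokinase related to TRIB3, had 5.77, 4.53 and 4.57 on the vector control arrays, of which 1 was detected, and 6.98, 7.37 and 7.65 on the circANRIL arrays (log2 fold change 2.38, standard error 0.29). Both fold changes are inexact because some controls were not detected, and no p is given for them, as without the circANRIL arrays they would not have met the detection filter. TRIB1 and CHAC2, in contrast, had −0.24 (standard error 0.16, adjusted p = 0.328) and 0.06 (standard error 0.19, adjusted p = 0.876), with overlapping groups.

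Upstream of ATF4, the genes around eIF2 were called about as often as genes in general. Of 22 genes of eIF2, its exchange factor eIF2B, its kinases, phosphatases and their regulators, limma's test called 2 higher and 3 lower, leaving 17 uncalled. That is 22.7% called, beside 20.7% of all 12134 genes (11.4% higher and 9.26% lower), and the median log2 fold change was −0.04. All 4 eIF2 kinases had positive values by their brightest probe. GCN2 (EIF2AK4), the sensor of uncharged tRNA, had log2 levels of 7.86, 7.87 and 7.90 on the vector control arrays and 8.28, 8.50 and 8.48 on the circANRIL arrays (log2 fold change 0.54, standard error 0.17, adjusted p = 0.0332). HRI (EIF2AK1), which responds to haem shortage, rose by 0.43 (adjusted p = 0.0267), but its dimmer probe had −0.54 (adjusted p = 0.116). The double-stranded RNA sensor PKR (EIF2AK2) had 0.46 (adjusted p = 0.0546) and the endoplasmic reticulum kinase PERK (EIF2AK3) 0.48 (adjusted p = 0.155).

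The falls were in the eIF2B subunits EIF2B1 and EIF2B5 and in DNAJC3, an inhibitor of PERK and PKR. EIF2B1 had 8.56, 8.45 and 8.62 on the vector control arrays and 8.08, 7.59 and 7.53 on the circANRIL arrays (log2 fold change −0.81, standard error 0.19, adjusted p = 0.0065). EIF2B5 had −0.57 (adjusted p = 0.0317) and DNAJC3 −0.69 (adjusted p = 0.0236). Of the 5 calls in this group, EIF2B1 alone held in all 6 fits that left out an array. EIF2AK4 held only without circANRIL array 1, and the number called was 1 without circANRIL array 2, 2 without circANRIL array 3 or vector control array 1, 3 without vector control array 3, and 6 without circANRIL array 1. Of all 21191 probes, 3753 were called in the fit of all arrays and 2138 to 3322 when each array was left out. With median scaling neither kinase passed (adjusted p = 0.0557 for EIF2AK4 and 0.0579 for EIF2AK1).

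Among other bZIP factors able to pair with the members, 8 of 20 measured genes were higher and none was lower. Beside this stand 11.4% higher and 9.26% lower over all genes. The median log2 fold change of the 20 genes was 0.25. Like the other lists here, this one was written with earlier results of these data known. Its counts and p-values are therefore a description and no independent test. FOS, an immediate early partner of JUN, had log2 levels of 6.38, 6.17 and 5.77 on the vector control arrays and 7.93, 8.71 and 8.46 on the circANRIL arrays (log2 fold change 2.26, standard error 0.23, adjusted p = 4.3e-06). FOSB rose by 1.76 (adjusted p = 0.00031) and BATF3 by 1.14 (adjusted p = 0.0016). CEBPG, a C/EBP partner of ATF4 at CARE sites, had 9.50, 9.87 and 9.31 on the vector control arrays and 10.18, 10.35 and 11.05 on the circANRIL arrays (log2 fold change 0.97, standard error 0.20, adjusted p = 0.0036). These 4 calls held without any 1 array, whereas the number of genes called was 5 without circANRIL array 2 and 4 without circANRIL array 3. In those fits 2138 and 2192 of all probes were called, in place of 3753 with all arrays.

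Of 42 measured ATF4 target genes outside the members, mostly genes of amino acid supply, tRNA charging and secreted stress factors, 16 were higher and none was lower, with 26 not called. Over all genes 11.4% were higher and 9.26% lower. The median log2 fold change of the 42 genes was 0.25. This list too was written with earlier results of these data known, so its counts and p-values are no independent test. INHBE, an inhibin subunit, had log2 levels of 4.99, 6.10 and 5.17 on the vector control arrays and 7.56, 7.82 and 8.05 on the circANRIL arrays (log2 fold change 2.39, standard error 0.26, adjusted p = 9.5e-06). The glycine transporter gene SLC6A9 rose by 1.94 (standard error 0.26, adjusted p = 7.6e-05), while its 2 other probes were detected on no array. GDF15, a stress-induced cytokine, and ALDH1L2, a mitochondrial folate enzyme, were detected on all circANRIL arrays and no vector control array. Measured against the lowest detected level of each control array, they were at least 1.85-fold and 1.89-fold higher. They met the detection filter only through the circANRIL arrays, so no p is given for them. They are among the 16, as is SLC1A4, which was detected on 2 vector control arrays and would likewise not have met it without the circANRIL arrays. Among the 38 genes of the list detected at p under 0.01 on all 6 arrays, 13 were higher and none was lower. Of all 15212 probes that passed that filter, 1476 were higher and 1444 lower.

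The number of these genes called was 12 to 16 when each array was left out (SLC7A1 was lower, at −0.56, without circANRIL array 3), but 2 with background-subtracted signals floored at 16. Of all probes 2138 to 3322 were called when each array was left out and 1527 with the floor, in place of 3753. By order of arrays, 32 of the 42 (76.2%) were lowest of the circANRIL arrays on array 1, 27 (64.3%) were highest on array 3 and 19 (45.2%) were lowest of the controls on vector control array 3, beside 32.8%, 36.1% and 36.0% of all genes. Of the list, 35 genes had a promoter window and 12 of those held CARE letters, beside 4.46% of all genes with a window. Among the 11 measured genes with CARE letters 4 were higher (ASNS, SLC1A4, GARS1 and AARS1), and among the 22 measured genes without them 9 were higher, with medians of 0.26 and 0.24 on the log2 scale. The 4 include SLC1A4 and the 9 include GDF15, which without the circANRIL arrays would not have met the detection filter.

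None of the 4 genes set as CHOP targets in cell death and oxidation passed limma's test by its brightest probe, beside 20.7% of all genes. They are ERO1A, TNFRSF10B, BBC3 and BCL2L11. At an unadjusted p under 0.05, 0 of them passed by limma or by the methods' t-test, beside 6788 and 5388 of all 21191 detected probes. The list is not a full set of CHOP targets, as it leaves out the members, PPP1R15A (1.06) among them. Of the members, TRIB3 (2.06) and CHAC1 (0.60) are named above as targets of CHOP or its cascade. With only 4 genes, a count of 0 says little about CHOP targets in general. The log2 fold changes, with their standard errors, were 0.09 (0.16) for ERO1A, an oxidase of the endoplasmic reticulum, −0.29 (0.14) for the death receptor gene TNFRSF10B, −0.27 (0.22) for BBC3, which encodes PUMA, and −0.30 (0.20) for BCL2L11, which encodes BIM. A dimmer TNFRSF10B probe had −0.48 (adjusted p = 0.141). In the ATF6 and XBP1 branches of the unfolded protein response 3 of 18 genes (16.7%) were higher and none was lower, beside 11.4% and 9.26% of all genes, with a median log2 fold change of 0.06. The chaperone cofactor DNAJB9 rose by 1.15 (standard error 0.22, adjusted p = 0.0017), the transcription factor XBP1 by 0.74 (standard error 0.15, adjusted p = 0.0023, and 0.63 by its other probe) and ATF6 by 0.53 (adjusted p = 0.0447), a call that held only without vector control array 2 or 3. Without vector control array 1 or circANRIL array 1, 2 or 3 the values of ATF6 were 0.34, 0.54, 0.54 and 0.51. HSPA5 fell just short of the threshold (0.58, adjusted p = 0.0504), and 10 of the 18 genes had positive values.

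Of 12 genes of the mTORC1 axis that DDIT4 acts on, none was higher and 2 were lower (16.7% called, beside 20.7% of all genes). SESN1, a sestrin that restrains mTORC1, had log2 levels of 9.43, 9.45 and 9.54 on the vector control arrays and 8.66, 8.80 and 8.71 on the circANRIL arrays (log2 fold change −0.75, standard error 0.15, adjusted p = 0.0024). TSC2, through which DDIT4 acts on mTORC1, had −0.74 (standard error 0.21, adjusted p = 0.0223). The TSC2 call was lost without vector control array 1 (−0.63) or circANRIL array 1 (−0.75) or 3 (−0.61), while that of SESN1 held in all 6 fits. TSC1, the partner of TSC2, was not called by its brightest probe (−0.45, adjusted p = 0.0544), but its other 2 probes had −0.76 (adjusted p = 0.0101) and −0.75 (detected on 2 of 3 circANRIL arrays). All 3 probes were lower on every circANRIL array than on any vector control array, and with median scaling or the probe of smallest p 3 genes of the axis were called.

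**Figure D4:**
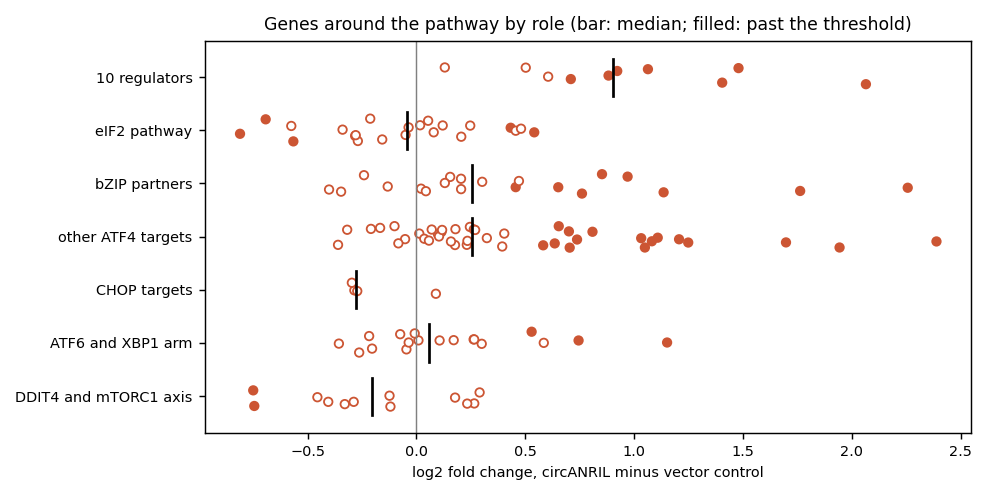
Log2 fold change of circANRIL over vector control (horizontal axis) for each measured gene of the 10 regulators and of 6 lists around them. The median of each list is shown as a bar, with filled points for genes past an adjusted p under 0.05. The regulators and lists were chosen with earlier results of these data known, so the filled points are no independent test. The medians are 0.90 for the regulators, −0.04 for the eIF2 pathway, 0.25 for bZIP partners, 0.25 for other ATF4 targets, −0.28 for the 4 CHOP targets outside the members, 0.06 for the ATF6 and XBP1 arm and −0.21 for the DDIT4 and mTORC1 axis.

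The profiles over the 6 arrays most like that of ATF4, by the root mean square difference of log2 values centred on each probe's mean, were those of NDEL1 (0.04), IRAK1BP1 (0.05), SLC39A4 (0.05), LRRC34 (0.05) and ARHGAP18 (0.05). Those most like DDIT3 were PLEKHG1 (0.06), KCNK1 (0.06), RNF144B (0.08), MAGEH1 (0.08) and RSPH3 (0.09), whose matching probes had log2 fold changes of 0.96, 1.00, 0.81, 1.03 and 0.82. They were taken among 13599 probes with 1 gene symbol that were detected on all arrays.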

How the data were processed

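The authors preprocessed bead-level data of the 6 arrays in GenomeStudio (version 2011.1 in the submitters' processing notes). Per the methods, quantile normalization and background reduction followed there. The deposited intensities of 47315 probes are background-subtracted (11666 to 12397 per array are negative) and not normalized between arrays. The deposited detection p-values, in steps of 1 in 770, come from negative control beads. A table of the authors' quantile-normalized intensities served as an alternative.

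Using neqc (limma 3.58.1, R 4.3.3, offset 16), signals were corrected for background from the detection p-values and quantile-normalized to log2 levels. Of these probes 21191, detected (p under 0.05) on at least 3 of 6 arrays, were tested with lmFit and eBayes (intensity trend), Benjamini-Hochberg adjusted over all of them. A gene is represented by its detected probe of highest mean level. Symbols came from the platform annotation, updated by gene identifier to GRCh38.p14. The number of arrays limits the precision, and the smallest two-sided exact permutation p that 3 against 3 allows is 0.1.

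The members and lists were chosen with earlier results of these data known. Named are all members, their 4 paralogs, the called genes of each list (the 4 smallest p-values per direction where over 6 were called) and the 5 profiles most like ATF4 and DDIT3. Others (EIF2AK2, EIF2AK3, HSPA5, TSC1, SLC7A1, the CHOP targets and the called genes with CARE letters) were chosen after their values were seen. Alternatives were other background corrections, scaling, filters, tests and probe choices, the replicate number as a block, and leaving out each array. Replicate numbers were not taken as pairs in the main fit, and the labels do not say whether same-numbered arrays belong together.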

Additional observations from a re-analysis of the deposited data

How the results depend on the processing

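Counts of calls depended most on the background correction and the test. With a floored background 1527 probes in all were called in place of 3753. Among them were 4 member probes (DDIT3, TRIB3, PPP1R15A and STC2), while DDIT4 (1.43), ATF3 (0.73) and CEBPB (0.90) were no longer called. Of the lists, 1 gene of the eIF2 pathway, 3 bZIP partners, 2 other ATF4 targets, 1 gene of the ATF6 and XBP1 arm and 1 of the mTORC1 axis were called. With the methods' t-test, which they name for pairs of groups in general but not for the arrays, after Benjamini-Hochberg adjustment 484 probes were called, 0 of them member probes and 0 in each list but the mTORC1 axis, with 1. At an unadjusted p under 0.05 in that test 5388 probes passed, 6 of them member probes. In the eIF2 pathway 3 genes were called with median scaling and 1 without a filter. When each array was left out, 2138 to 3322 probes, 5 to 8 member probes, 1 to 6 eIF2 pathway genes, 4 to 8 bZIP partners and 1 to 2 mTORC1 axis genes were called. The median log2 fold change of the 10 regulators was then 0.75 to 1.04. With the replicate number as a block 3531 probes and 7 member probes were called. The deviations of same-numbered arrays correlated at 0.003, 0.08 and −0.13, so the numbers were not taken as pairs. In the authors' normalized values, whose medians are 96.32 to 96.34 against 5.84 to 7.01 in the other deposited signals, TRIB3 had 1.34 and DDIT3 0.61. Signals near background, as for CHAC1, leave fold changes there imprecise.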
